A study of Homo sapiens with 6 samples.

Results

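Messenger RNA of the Sprouty genes SPRY1, SPRY2 and SPRY4, the SPRED genes SPRED1 and SPRED2, the transcription factor genes ETV4 and ETV5, and PHLDA1 was examined in the human cell line MDA-MB-231, which derives from a triple-negative breast cancer. The cells received either 50 µM TCI04 or phosphate-buffered saline (PBS) for 48 h, and RNA was hybridised to Affymetrix arrays, with 3 arrays for TCI04 and 3 for PBS. The labels give TCI04 by code only, and both groups share the cell line and the culture medium with 10% serum. Every non-control probe set whose only annotated symbol was one of the 8 genes was taken, which gave 23 of the 54675 probe sets of the array and 8 of its 19775 singly annotated genes. The genes were named as outputs of the ERK pathway and not by their values in these arrays, although earlier results of these data were known when they were named. Nothing in the labels ties the replicate arrays to separate cultures, so each p-value reflects only array-to-array spread, possibly technical. In bulk RNA of this kind, fewer cells that express a gene and less RNA per cell cannot be told apart.

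In cells with active receptor tyrosine kinases, RAS activates RAF, MEK and ERK, and ERK in turn raises the transcription of proteins that dampen the same pathway. Sprouty and SPRED proteins are such inhibitors: Sprouty proteins act between the receptor and RAF, and SPRED proteins bind the RAS inactivator neurofibromin at the membrane. ETV4 and ETV5 are ETS transcription factors of the PEA3 subfamily, which are induced by ERK signalling and carry part of its output into the nucleus. PHLDA1 encodes a pleckstrin homology-like domain protein whose transcript is widely used, with several of the others, as a readout of MEK and ERK activity. MDA-MB-231 cells are known for a constitutively active RAS to ERK pathway.

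The RefSeq promoter table (GRCh38.p14, windows of 300 bases) held 10 windows for 6 of the 8 genes. Some genes had several windows, and not all of these span the annotated start of the gene. ETV4 and ETV5 had none there. Each window was searched on both strands for the ETS core CCGGAA, the AP-1 motif TGANTCA and the motif TGAATGAA of the repressor CIC, which is known to act on PEA3 genes. The ETS core was found in 3 of the 10 windows, 1 each of SPRY1, SPRY2 and PHLDA1, against 17.2% of 35116 promoter windows of the same length. The AP-1 motif was found in 1 window, which lies inside the SPRED2 gene and not at its start, against 7.71% of all windows. TGAATGAA was found in 0, against 1.65%. The windows include none of ETV4 and ETV5, the PEA3 genes of the set. At so low a share, 0 in 10 windows cannot tell whether CIC acts on these genes. The windows with the ETS core are printed below because ETV4 and ETV5 belong to the factor family that binds such letters. A match describes the letters and is not a site shown to be used. Each is written 5′ to 3′ on the gene's strand, with the ETS core in capitals (TTCCGG where it lies on the other strand). The SPRY1 window is chr4:123398136-123398435 on the plus strand, the SPRY2 window chr13:80341077-80341376 on the minus strand, and the PHLDA1 window chr12:76031727-76032026 on the minus strand. The printed SPRY2 and PHLDA1 windows span the annotated start of the gene. The printed SPRY1 window lies inside the gene, which starts at position 123396795. The SPRY1 window over that start, chr4:123396545-123396844, held no ETS core.
SPRY1: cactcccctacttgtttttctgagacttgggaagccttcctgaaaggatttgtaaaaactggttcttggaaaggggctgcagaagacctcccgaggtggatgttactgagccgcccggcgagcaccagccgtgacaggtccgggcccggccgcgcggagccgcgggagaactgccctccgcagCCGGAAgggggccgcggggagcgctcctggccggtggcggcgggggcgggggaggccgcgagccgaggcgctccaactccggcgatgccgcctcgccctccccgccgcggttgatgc
SPRY2: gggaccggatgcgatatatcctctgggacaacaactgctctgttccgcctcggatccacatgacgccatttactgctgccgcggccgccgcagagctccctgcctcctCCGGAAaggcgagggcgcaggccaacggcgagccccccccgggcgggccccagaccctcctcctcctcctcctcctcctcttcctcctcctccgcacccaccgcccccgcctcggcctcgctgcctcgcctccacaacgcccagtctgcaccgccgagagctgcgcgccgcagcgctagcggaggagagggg
PHLDA1: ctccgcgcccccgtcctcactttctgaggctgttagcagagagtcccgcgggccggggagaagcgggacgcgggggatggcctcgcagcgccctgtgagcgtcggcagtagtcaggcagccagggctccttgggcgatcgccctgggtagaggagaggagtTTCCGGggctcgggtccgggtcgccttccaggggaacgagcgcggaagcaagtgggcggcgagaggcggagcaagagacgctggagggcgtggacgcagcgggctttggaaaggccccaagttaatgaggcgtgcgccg

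The values were MAS5 signals, in which the probes of a probe set are summarised within each array on a linear scale. The trimmed mean was 500.1 on every array, and the median signal was 58.9 to 59.8 in the TCI04 arrays and 64.0 to 74.3 in the PBS arrays. The 3′ to 5′ signal ratio of the ACTB control, a measure of RNA integrity, was 1.71, 1.70 and 3.33 in TCI04 replicates 1, 2 and 3, against 1.64 to 1.72 in the PBS arrays. The same ratio of the GAPDH control was 0.97, 1.08 and 1.21 in TCI04 replicates 1, 2 and 3, against 0.98 to 1.07 in the PBS arrays. TCI04 replicate 3 therefore stood apart by the ACTB ratio and much less by the GAPDH ratio. Results are also given without this array. Of 6 markers chosen for the cell line, 5 were measured above the filter on dim probe sets, among them VIM, CD44 and AXL. Of 8 luminal markers, 6 were above the filter (KRT8, KRT18, GATA3, EPCAM, FOXA1 and ESR1) and PGR and CDH1 below it. ESR1 lay near the filter (about 33.9), with means of 46.6 with TCI04 and 29.3 with PBS. The summed luminal signal was 17814 to 19671 in TCI04 arrays and 18226 to 21503 in PBS arrays. Most of that sum was KRT18, with means of 15480 with TCI04 and 16442 with PBS. Of 6 fibroblast markers 2 were above the filter, and of 6 leukocyte markers 1 was. The summed signal of the leukocyte markers was 101 to 174 in TCI04 arrays and 108 to 212 in PBS arrays.

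No probe set of the 8 genes passed the test for a difference between TCI04 and PBS. Of the 23 probe sets, 22 passed the filter on dim signals (a signal of about 33.9) and were tested, and 0 passed limma at an adjusted p of 0.05, where 0.00305% of all 32746 tested probe sets did. At an unadjusted p under 0.05, 0 of the 22 had a higher mean (2.21% of all tested probe sets) and 1 had a lower mean (4.88%). The smallest adjusted p among them was 0.697 (limma). All 3 TCI04 arrays lay above all 3 PBS arrays for 3 probe sets, against 5.35% of all tested, and below them for 1, against 8.19%.

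On the log2(signal + 10.96) scale used for every fold change here, 14 of the 22 probe sets had a higher mean with TCI04, against 43.8% of all tested probe sets. Their median log2 fold change was 0.04, against -0.03 for all tested probe sets. The 95% intervals reached from 0.13 to 0.87 to each side, with a median of 0.26, against 0.37 over all tested probe sets. For 15 of the 22 the whole interval lay within 1.5-fold in both directions, as it did for 54.9% of all tested. A 1.5-fold change of these 15 therefore lay outside their intervals. The intervals of the other 7 reached past 1.5-fold, so that statement cannot be made for them. Among these, the estimates of SPRED2 212466_at (-0.69) and PHLDA1 218000_s_at (-0.62) were themselves past 1.5-fold. SPRED2 212466_at passed the filter only through the PBS group. Which estimates pass 1.5-fold depends on the added constant. With a constant of 1, ETV5 231083_at (-0.67) was past it too. With the table median as constant, SPRED2 212466_at was at -0.33 and PHLDA1 218000_s_at at -0.57, both within it.

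**Figure D1:**
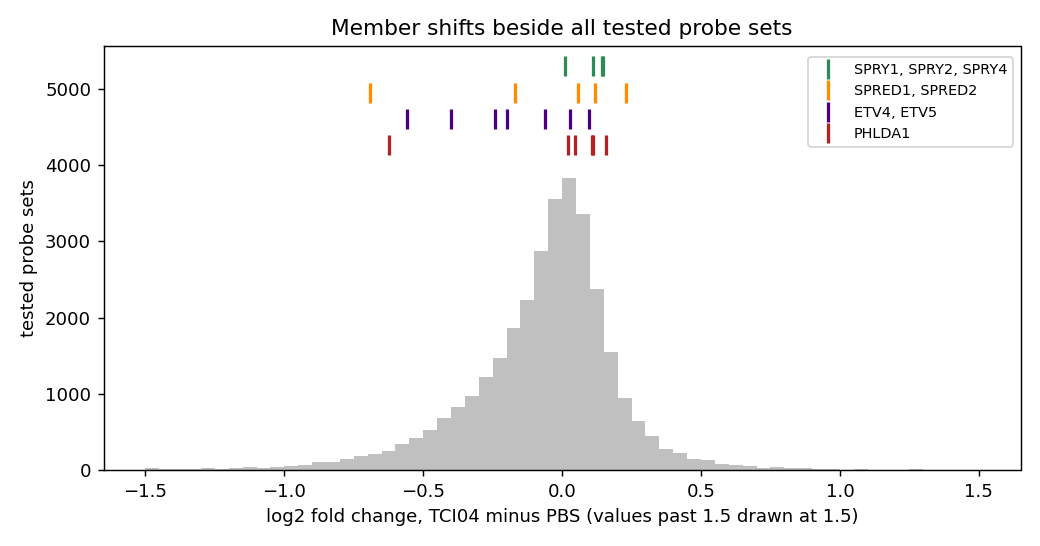
Histogram of the log2 fold change (TCI04 minus PBS) of the 32746 tested probe sets, with a tick for each of the 22 tested probe sets of the 8 genes by gene group; counts of probe sets are on the vertical axis. Most ticks lie near 0, and the 4 farthest to the left are single probe sets of SPRED2, PHLDA1, ETV5 and ETV4 at -0.69, -0.62, -0.56 and -0.40.

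The Sprouty genes, the inhibitors that act above RAF, had mean signals close to those of PBS cells. SPRY1, measured by 212558_at, had signals of 1474, 1354 and 1685 in TCI04 arrays, against 1395, 1273 and 1386 in PBS arrays. Replicates 1 and 3 of TCI04 were higher than every PBS array and replicate 2 was not, so the groups overlapped. The means were 1504 ± 168 with TCI04 and 1351 ± 68.2 with PBS (SD, n = 3 arrays each), a log2 fold change of 0.15 with a standard error of 0.09 (limma, adjusted p = 0.722), and 0.06 without TCI04 replicate 3. The other SPRY1 probe set, 230212_at, measured 188, 249 and 139.6 with TCI04 and 169, 184 and 154 with PBS. It gave nearly the same log2 fold change of 0.14 with a wider interval, from -0.32 to 0.61, and 0.34 without TCI04 replicate 3. The 2 SPRY1 probe sets ordered the TCI04 arrays in opposite ways: replicate 3 was the highest of the 6 arrays in 212558_at and the lowest in 230212_at.

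SPRY2, which encodes a Sprouty protein that is phosphorylated on tyrosine after receptor activation and binds the ubiquitin ligase CBL, had signals of 2117, 1850.0 and 2147 with TCI04 and 1967, 1876 and 1808 with PBS. TCI04 replicate 2 lay inside the PBS range and the other TCI04 arrays above it. The log2 fold change was 0.11, with an interval from -0.06 to 0.29 (limma, adjusted p = 0.751), and 0.07 without TCI04 replicate 3. SPRY4, which inhibits the pathway at a step near RAF, had signals of 2592, 2709.8 and 2804 with TCI04 and 2629, 2685 and 2731 with PBS. The TCI04 range contained the whole PBS range, and the interval, from -0.13 to 0.15 around 0.01, was among the narrowest. That sign turned to -0.018 after quantile normalization and -0.017 without TCI04 replicate 3.

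**Figure D2:**
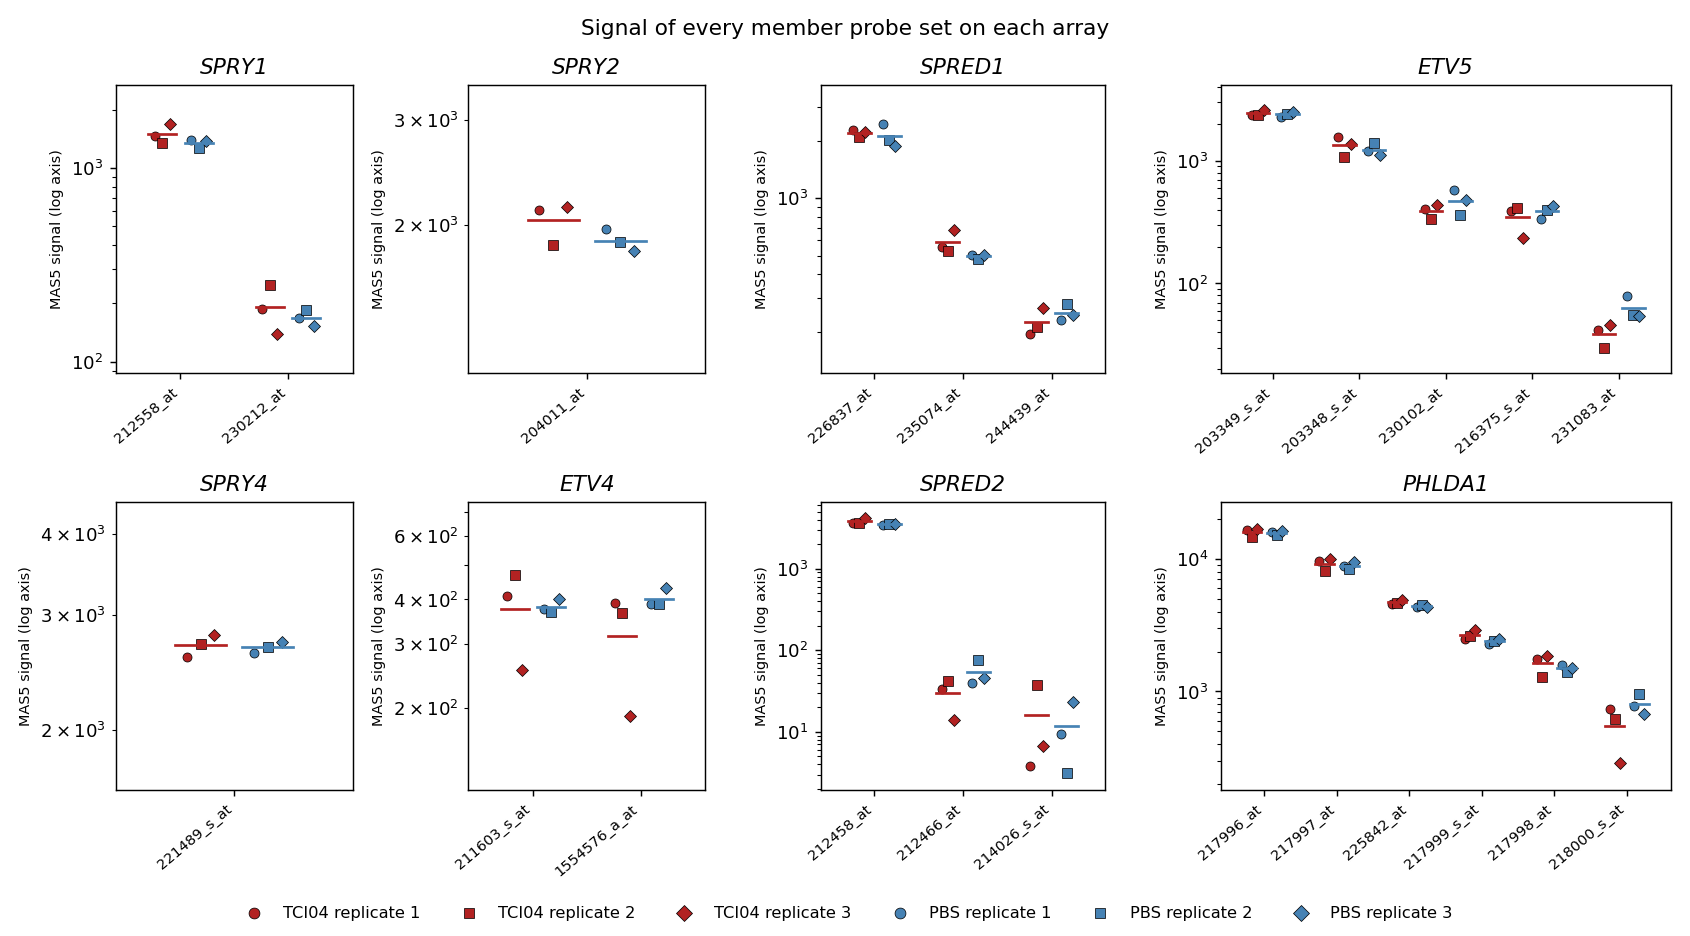
MAS5 signal (log axis) of each of the 23 probe sets on each array, 1 panel per gene, with TCI04 arrays in red on the left and PBS arrays in blue on the right of each probe set; marker shapes give the replicate number and bars the group mean. TCI04 replicate 3 (red diamond) lies lowest of the 6 arrays in both ETV4 probe sets and in PHLDA1 218000_s_at, at 290, and highest in PHLDA1 217996_at, at 16918.

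The SPRED genes, whose products bring neurofibromin to the membrane, had probe sets on both sides of 0. SPRED1 235074_at had signals of 558, 527 and 679.6 with TCI04, against 503, 482 and 505 with PBS. All TCI04 arrays lay above all PBS arrays. The means were 588 ± 80.9 with TCI04 and 497 ± 12.8 with PBS (SD, n = 3 arrays each), a log2 fold change of 0.23 with an interval from -0.02 to 0.49 (limma, adjusted p = 0.697). Without TCI04 replicate 3 this value was 0.12. SPRED1 226837_at averaged 2191 ± 99.4 with TCI04 and 2115 ± 295 with PBS, a log2 fold change of 0.06, and 244439_at averaged 223 ± 36.8 with TCI04 and 251 ± 23.8 with PBS, a log2 fold change of -0.17 (-0.29 without TCI04 replicate 3). Neither separated the groups, so the non-overlap in 235074_at was not repeated in the gene's other probe sets.

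SPRED2 212458_at had signals of 3609, 3666 and 4151 with TCI04 and 3434, 3542 and 3526 with PBS. The groups did not overlap, and the log2 fold change was 0.12 with an interval from -0.03 to 0.27 (limma, adjusted p = 0.713). TCI04 replicate 3 was again the highest array, and the value was 0.06 without it. SPRED2 212466_at was dim, with signals of 33.8, 41.4 and 14.1 in TCI04 arrays and 39.99, 75.2 and 45.2 in PBS arrays. Its mean was 29.8 with TCI04, under the filter signal of about 33.9, and 53.5 with PBS. It thus passed the filter only through the PBS group, and with PBS replicate 2 left out it was not tested. It had the lowest log2 fold change of the 22 probe sets, -0.69, and also the widest interval, from -1.56 to 0.18. Without TCI04 replicate 3 its value was -0.37. SPRED2 214026_s_at, the probe set that did not pass the filter, had signals of 3.86, 37.5 and 6.68 with TCI04 and 9.34, 3.12 and 23.1 with PBS, and its SD within each group was close to the group's mean (16.0 ± 18.7 with TCI04 and 11.9 ± 10.2 with PBS).

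**Figure D3:**
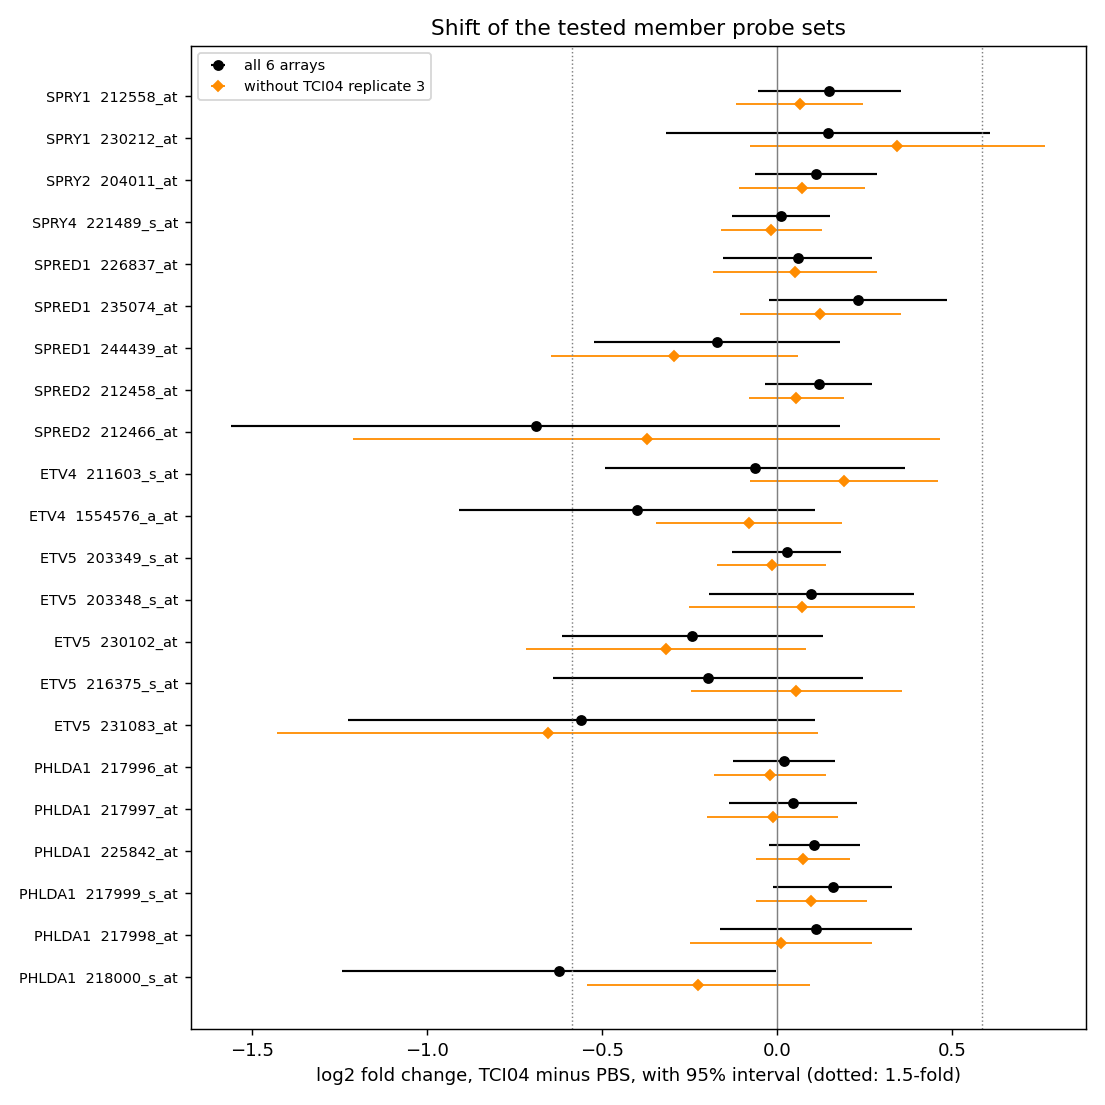
Log2 fold change (TCI04 minus PBS, horizontal axis) of the 22 tested probe sets with 95% intervals from limma, over all 6 arrays (black) and without TCI04 replicate 3 (orange); dotted lines mark 1.5-fold. With all arrays the interval of PHLDA1 218000_s_at ends just below 0, and without TCI04 replicate 3 all 22 intervals include 0.

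Of the transcription factor genes, ETV4 was low in 1 array. ETV4 1554576_a_at had signals of 391.6, 368 and 189 with TCI04, against 388, 389 and 429 with PBS. ETV4 211603_s_at had signals of 409, 468 and 254 with TCI04, against 376, 370.1 and 401 with PBS. In both, replicate 3 was far below the other TCI04 arrays, while replicates 1 and 2 lay near or above the PBS arrays. The log2 fold changes were -0.40 (interval -0.91 to 0.11) and -0.06 (interval -0.49 to 0.37), with adjusted p of 0.707 and 0.946 in limma. Without TCI04 replicate 3 they were -0.08 and 0.19. The sign of 211603_s_at also turned with median centring of the arrays (0.097) and with array weights (0.040).

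ETV5, the other PEA3 factor of the set, had 5 probe sets. For 203349_s_at the signals were 2375, 2376 and 2598 with TCI04 and 2293, 2399 and 2520.5 with PBS. These groups overlapped closely, with a log2 fold change of 0.03 and an interval from -0.13 to 0.18 (-0.02 without TCI04 replicate 3). For 216375_s_at they were 389.7, 414 and 234 with TCI04 and 336, 401 and 429 with PBS. Here again replicate 3 alone was low, and the log2 fold change of -0.20 became 0.05 without it. ETV5 203348_s_at averaged 1334 ± 244 with TCI04 and 1237 ± 139 with PBS, and 230102_at averaged 391.9 ± 48.8 and 471 ± 107 in the same order, with log2 fold changes of 0.10 and -0.24.

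ETV5 231083_at was the only tested probe set of the 22 with all TCI04 arrays below all PBS arrays, a pattern seen in 8.19% of all tested probe sets. Its signals were 41.7, 29.8 and 45.6 with TCI04, against 78.5, 55.3 and 54.5 with PBS, close to the filter on dim signals. Its log2 fold change was -0.56 with an interval from -1.23 to 0.11 (limma, adjusted p = 0.705), and -0.66 without TCI04 replicate 3. The other 4 ETV5 probe sets lay between -0.24 and 0.10.

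PHLDA1, whose transcript serves as an ERK readout, was measured by 6 probe sets, of which 5 had a slightly higher mean and 1 a lower mean with TCI04. In 217996_at the signals were 16654, 14554 and 16918 with TCI04 and 15956, 15202 and 16229 with PBS, a log2 fold change of 0.02. In 225842_at they were 4596, 4645 and 4935 with TCI04 and 4309, 4496 and 4357 with PBS. The groups of 225842_at did not overlap, with a log2 fold change of 0.11 and an interval from -0.02 to 0.24 (limma, adjusted p = 0.705). In 217999_s_at the means were 2672 ± 218 with TCI04 and 2389 ± 107 with PBS (SD, n = 3 arrays each), a log2 fold change of 0.16 (0.10 without TCI04 replicate 3). In 217997_at the means were 9179 ± 1002 with TCI04 and 8867 ± 558 with PBS, a log2 fold change of 0.05. In 217998_at they were 1631 ± 299 with TCI04 and 1493 ± 87.6 with PBS, a log2 fold change of 0.11 (0.01 without TCI04 replicate 3), and in both probe sets TCI04 replicate 2 was the lowest and replicate 3 the highest of the 6 arrays.

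PHLDA1 218000_s_at went the other way. Its signals were 744, 618 and 290 with TCI04 and 782, 952 and 672 with PBS, so that TCI04 replicate 1 lay inside the PBS range, replicate 2 just below it and replicate 3 far below. The means were 550.5 ± 234 with TCI04 and 802 ± 141 with PBS (SD, n = 3 arrays each). This gave a log2 fold change of -0.62 (standard error 0.28), an unadjusted p of 0.0489 and an adjusted p of 0.697 (limma). It is the probe set counted above at the unadjusted threshold. Without TCI04 replicate 3 its log2 fold change was -0.23, with an adjusted p of 0.872. The other PHLDA1 probe sets lay between 0.02 and 0.16 with all arrays and between -0.02 and 0.10 without that array.

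Probe sets of the same gene often had different signs. Of the 6 genes with several tested probe sets, 4 (SPRED1, SPRED2, ETV5 and PHLDA1) had log2 fold changes on both sides of 0, against 60.5% of 6859 such genes on the array. The span between the lowest and highest log2 fold change was widest for SPRED2, 0.81 from 2 tested probe sets and 0.43 without TCI04 replicate 3. The median span over all 6859 genes with several tested probe sets was 0.26. The negative sign and the span of SPRED2 both rest on the dim 212466_at, which passed the filter only through the PBS group. They therefore cannot show that the SPRED2 probe sets differ beyond the spread at dim signals. The span was 0.78 for PHLDA1, against a median of 0.52 among the 183 genes with 6 tested probe sets. Without TCI04 replicate 3 the span was 0.32 for PHLDA1 and the median 0.49. The span of ETV5 was 0.66, and 0.73 without that array, and those of SPRED1, ETV4 and SPRY1 were 0.40, 0.34 and 0.004, or 0.42, 0.27 and 0.28 without it.

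**Figure D4:**
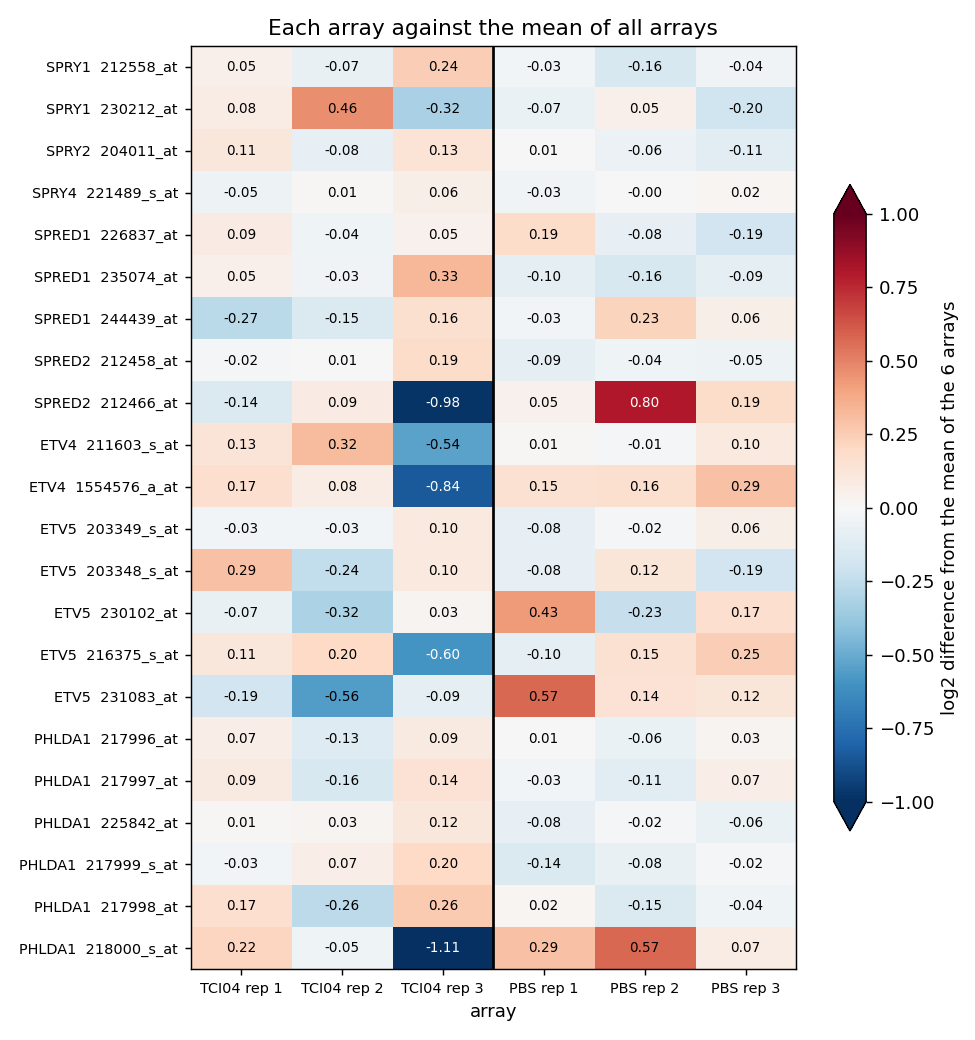
Log2 difference of each array (columns, TCI04 left of the line and PBS right of it) from the mean of the 6 arrays for each of the 22 tested probe sets (rows); red is higher and blue lower, and the printed values are those differences. The column of TCI04 replicate 3 holds the deepest blues, -1.11 for PHLDA1 218000_s_at, -0.98 for SPRED2 212466_at and -0.84 for ETV4 1554576_a_at, beside pale red for most other probe sets.

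Seen across arrays, a pattern noticed only after the values were seen, TCI04 replicate 3 was the extreme array in most of the 22 probe sets. It had the highest signal of the 6 arrays in 11 of them and the lowest in 6, against 20.7% and 23.0% of all tested probe sets. In those 6 (SPRY1 230212_at, SPRED2 212466_at, ETV4 211603_s_at and 1554576_a_at, ETV5 216375_s_at and PHLDA1 218000_s_at) it lay more than 1.5-fold below the mean of the other TCI04 arrays. The same held for 6.64% of all tested probe sets. The array with these values is the one with the ACTB ratio of 3.33 and the GAPDH ratio of 1.21. The part of RNA integrity in these values was not tested. Over the 6859 genes with several tested probe sets, the median spread between a gene's probe sets in their deviation from the mean of the arrays was 0.31 in TCI04 replicate 3 and 0.22 to 0.28 in the other arrays.

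**Figure D5:**
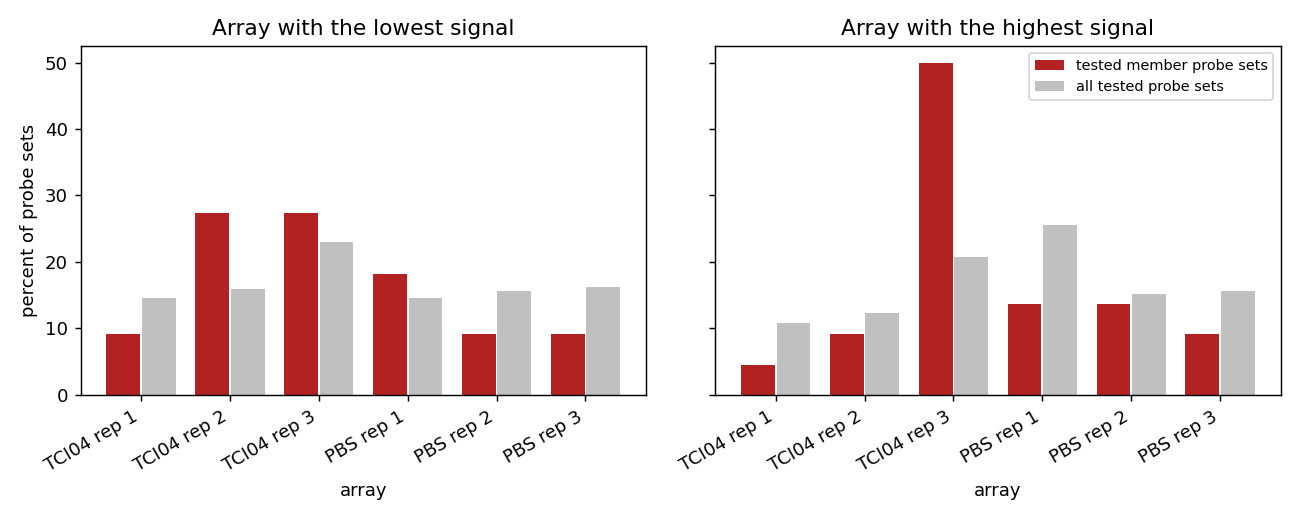
Percent of probe sets for which each array had the lowest (left panel) or highest (right panel) signal of the 6, for the 22 tested probe sets of the 8 genes (red) and for all 32746 tested probe sets (grey). TCI04 replicate 3 was highest in 50.0% of the 22, against 20.7% of all. TCI04 replicates 2 and 3 were each lowest in 27.3%, against 15.9% and 23.0% of all.

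Other genes of the pathway were counted by lists, each gene by its brightest tested probe set, and 0 genes of these lists passed limma at an adjusted p of 0.05, as was the case for all but 1 of 13679 genes tested (0.00731%). Among all genes 49.3% had a higher mean with TCI04 and 7.00% had an unadjusted p under 0.05, with a median log2 fold change of -0.003. Of the relatives of the 8 genes, 4 of 5 were tested, 1 with a higher and 3 with a lower mean. ETV1, the remaining PEA3 factor, was the higher one: it measured 2722 ± 8.63 with TCI04 and 2359 ± 43.5 with PBS (SD, n = 3 arrays each), a log2 fold change of 0.21 (limma, unadjusted p = 0.00653, adjusted p = 0.697). The groups of ETV1 did not overlap, and its 4 other tested probe sets gave -0.15 to 0.12. PHLDA2, a relative of PHLDA1, gave -0.03 on that scale by its brightest probe set and 0.39 by the remaining one.

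Of the other 5 transcripts used in scores of MEK and ERK activity (DUSP4, DUSP6, CCND1, EPHA2 and EPHA4), 2 had a higher and 3 a lower mean, with log2 fold changes from -0.12 to 0.06. DUSP6, the phosphatase that inactivates ERK, measured 11144 ± 1093 with TCI04 and 11911 ± 1410 with PBS (SD, n = 3 arrays each), a log2 fold change of -0.09, against 0.02 and 0.05 by the remaining probe sets. Upstream, 14 of 19 ligands and receptors were tested, 9 with a higher and 5 with a lower mean and a median log2 fold change of 0.07. The growth factor FGF1 had the smallest p of these, at 96.8 ± 14.5 with TCI04 and 63.9 ± 16.9 with PBS (limma, adjusted p = 0.697), and the receptor MET gave 0.04. Other probe sets gave -0.22 to 0.31 for FGF1 and -0.28 to -0.07 for MET. Of the adaptors and core cascade, 13 of 21 genes were tested, 9 with a higher and 4 with a lower mean and a median of 0.01. The phosphatase PTPN11, which relays receptor signals to RAS, gave 0.01, and its 4 other tested probe sets gave -0.60 to 0.14. The RAS exchange factor SOS2 gave 0.15, although its other probe sets gave -0.60 to -0.21.

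Among proteins that bind, modify or degrade Sprouty and SPRED proteins, 10 of 12 were tested, 6 with a higher and 4 with a lower mean and a median log2 fold change of 0.01. CBL, the ubiquitin ligase bound by SPRY2, measured 1556 ± 152 with TCI04 and 1356 ± 36.2 with PBS (SD, n = 3 arrays each), a log2 fold change of 0.19 (limma, unadjusted p = 0.0453, adjusted p = 0.697). Its 4 other tested probe sets gave -0.58 to 0.001. The caveolar protein CAV1 gave -0.03, and its other probe set -0.11. Among repressors and degraders of PEA3 factors, 7 of 8 were tested, 4 with a higher and 3 with a lower mean and a median of 0.03. Their log2 fold changes ran from -0.40 to 0.25. Of these 7, 2 had an unadjusted p under 0.05 (limma), against 7.00% of all genes tested. The ubiquitin ligase scaffold CUL4A gave 0.25 (limma, unadjusted p = 0.0328, adjusted p = 0.697), with other probe sets at -0.06 and 0.01, and the adaptor DDB1 gave -0.15. Genes of these lists that were not tested are not analysed here.

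Among the 8 genes by their brightest tested probe set, ETV4 (211603_s_at) had the widest range across the arrays, 0.86 on the log2 scale. The genes whose values followed it most closely over the 6 arrays were RPUSD3, CCDC85B and FBXL19, with Pearson's r of 0.996, 0.990 and 0.985. In each of these TCI04 replicate 3 was the lowest array, as in ETV4, with 483 for RPUSD3, 590.2 for CCDC85B and 54.0 for FBXL19. Among 13678 genes, 48 had an r over 0.95 with ETV4, and the points share the arrays and their RNA integrity, so these values describe the arrays only.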

How the data were processed

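RNA from 3 arrays of TCI04-treated and 3 of PBS-treated cells was analysed. The deposited values are intensity values, 1 per probe set and array; per the submitters' processing notes, the authors used MAS5, and its version is not given in the sources used here. Equal trimmed means (without the lowest and highest 2%) come from the authors' scaling. Fold changes are differences of log2(signal + 10.96), where the added constant equals the 20th percentile of the table; they understate changes at dim signals. The 62 controls and probe sets with a mean log2 value under the 40th percentile were left out. A linear model was fitted over 32746 probe sets with limma 3.58.1 in R 4.3.3 (variance trend, two-sided), with Benjamini-Hochberg adjustment over all of them, and 95% intervals used 10.5 degrees of freedom. Symbols come from the platform annotation. The steps were tested on simulated data. The genes and lists were chosen with earlier results of these data known. All probe sets of the 8 genes are named; of each list, genes past the threshold, the one with the highest signal and the one with the smallest p, and 3 genes most like the member of widest range. The number of arrays limits the precision.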

Additional observations from a re-analysis of the deposited data

How the results depend on the processing

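In all 17 alternatives (quantile normalization, median centring, 2 other offsets, 2 other filters, 3 other variance settings or tests, weighting of arrays, a replicate block, and each of 6 arrays left out), 0 probe sets of the 8 genes passed the adjusted threshold, with adjusted p of 0.281 or more; the unadjusted count ranged from 0 to 7. The 7 came with median centring, which moved the median of all tested probe sets from -0.03 to 0.13 and that of the 22 to 0.20. The share of all tested probe sets at the unadjusted threshold was not computed for the alternatives. These unadjusted counts are therefore not a result about the 8 genes. With the replicate block, 0 passed and the smallest adjusted p was 0.478. The unadjusted p of PHLDA1 218000_s_at was 0.00704 with the block and 0.0489 without it (limma). Same-numbered arrays hardly deviated together (correlations of 0.004, 0.062 and 0.050). Such values cannot show whether the numbers pair the arrays, and the labels do not say. The 2 other filters, the 3 other variance settings or tests and the replicate block left each tested fold change as it was. A sign could therefore turn only in the remaining alternatives. Of 22 probe sets, 13 kept their sign in every alternative that tested them, which was 15 of the 17 for SPRED2 212466_at, 16 for ETV5 231083_at and 17 for the other 11. The other 9 turned in some alternative, and the cause was not tested. Quantile normalization gave -0.018 for SPRY4; array weights gave -0.013 for SPRY4, 0.040 for ETV4 211603_s_at and -0.0028 for ETV5 203349_s_at; median centring gave 0.097 for ETV4 211603_s_at. With single arrays left out, the ranges of the 9 were -0.051 to 0.343 for SPRY1 230212_at, -0.017 to 0.040 for SPRY4, -0.023 to 0.167 for SPRED1 226837_at, -0.237 to 0.191 for ETV4 211603_s_at, -0.016 to 0.061 for ETV5 203349_s_at, -0.023 to 0.244 for ETV5 203348_s_at, -0.344 to 0.054 for ETV5 216375_s_at, -0.020 to 0.088 for PHLDA1 217996_at and -0.013 to 0.138 for PHLDA1 217997_at.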
